A study of Arabidopsis thaliana with 6 samples.

Results

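Photosynthesis in plants depends on proteins made from 2 genomes, and the genes described here are nuclear genes whose products are imported into the chloroplast. They are PSAN and PSAE-1 of photosystem I, PSBW and PSBY of photosystem II, the photosystem II assembly proteins PSB27 and LPA19, the antenna genes LHCB4.1 and LHCB4.2, and the Calvin cycle genes RCA and PRK. The 10 genes are nuclear genes of the photosystems, the antenna and the Calvin cycle that were selected on varying values over the 6 arrays, so that their variation is a description and not a finding. Each of the 10 was read by 1 probe set, out of 22810 on the array, and 13286 genes in all had a probe set of their own. Genes encoded in the plastid were not included.

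Photosystems I and II pass electrons through the thylakoid membrane, antenna proteins bind chlorophyll and feed them with absorbed light, and the Calvin cycle uses the resulting ATP and NADPH to fix carbon dioxide. Nuclear genes for these functions are known to be switched on together by light and during greening of young seedlings, and to be held at low levels in roots and in darkness.

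Total RNA came from whole seedlings of Arabidopsis thaliana, ecotype Col-0, with no transgene or mutation named in the labels. All plants stood upright on MS plates for 4 days and were then sprayed and rotated by 90°, and the harvest followed after 8 h. The mock group received a spray without the compound, and the NJ15 group received 10 µM NJ15, the ethyl ester of an acetic acid that bears a dichlorophenyl tetrazole. Each group had 3 arrays, called mock_1 to mock_3 and NJ15_1 to NJ15_3, which the labels describe as biological replicates.

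The deposited values are probe set levels on a log2 scale, so a difference of 1 is a doubling, and levels of different probe sets are not compared. Of 22746 probe sets tested, 16602 (73.0%) were flat, meaning that their 6 values spanned no more than 0.01, and 6144 varied. Array medians lay between 7.24 and 7.27. Signal over background is unknown. Shoot and root were harvested together, and in such material a smaller share of green cells cannot be told apart from less RNA per green cell.

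The photosynthesis genes did not separate NJ15 from mock seedlings, and each of the 10 differed more between the arrays of 1 treatment than between the group means. Of the 10 genes, 9 were lowest in mock_1 and highest in mock_3 among the mock arrays, and the order among the NJ15 arrays put NJ15_1 lowest for the same number. Each gene was centred on its own mean over the 6 arrays, and these centred values were averaged over the 10 genes. That average was -0.74, 0.03 and 0.81 in mock_1, mock_2 and mock_3, against -0.40, 0.16 and 0.14 in NJ15_1, NJ15_2 and NJ15_3. The NJ15 arrays thus lay between the lowest and the highest mock array, with mock_2, NJ15_2 and NJ15_3 close together. The plot of levels shows the same arrangement for 8 of the genes; NJ15_1 lay below all mock arrays for PRK and above them for LPA19.

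**Figure D1:**
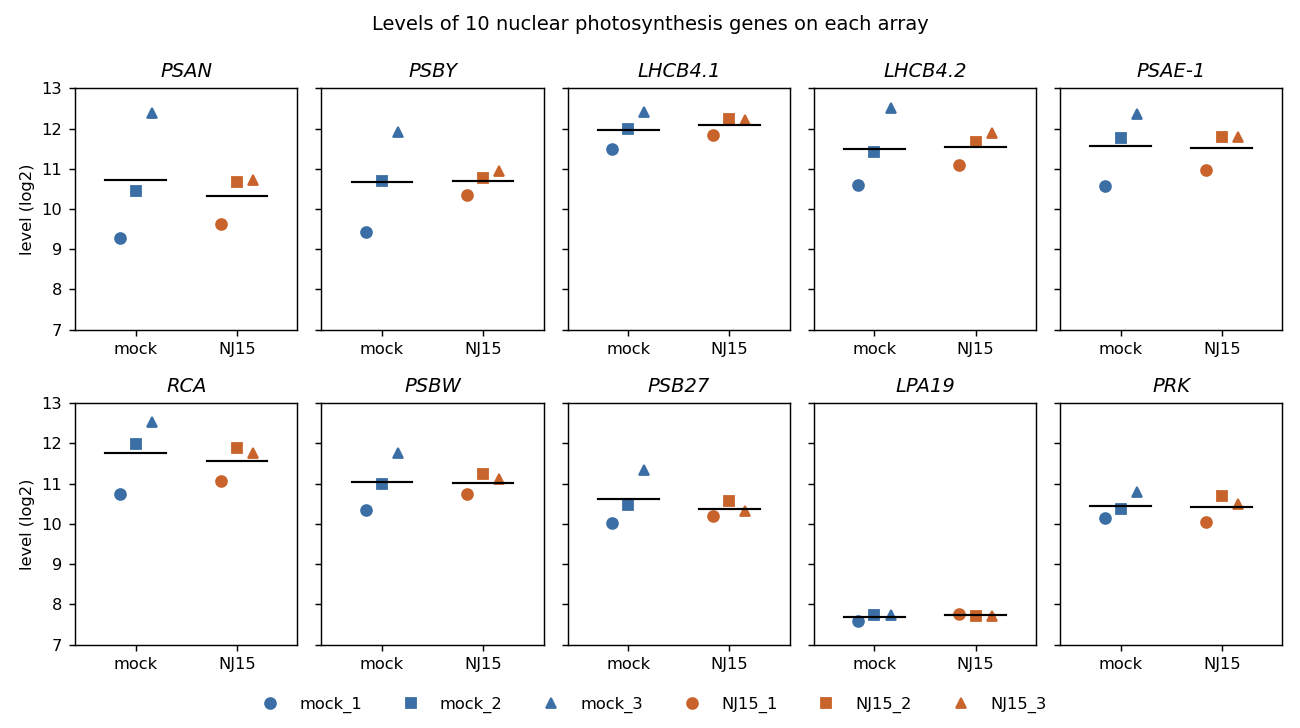
Level of each of the 10 nuclear photosynthesis genes (vertical axis, log2) on the 3 mock and the 3 NJ15 arrays (horizontal axis). Each symbol is 1 array and each bar is the mean of 3. For 9 of the 10 genes mock_1 is the lowest of all mock arrays and mock_3 the highest, and LPA19 is nearly level.

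Photosystem I takes electrons from plastocyanin on the inner side of the thylakoid and hands them to ferredoxin on the outer side. PSAN encodes a small subunit on the inner side, near the docking site of plastocyanin. Its level was 9.29, 10.45 and 12.39 in mock_1, mock_2 and mock_3, against 9.62, 10.66 and 10.72 in NJ15_1, NJ15_2 and NJ15_3. Among mock seedlings this is an 8.55-fold span, the widest of the 10 genes, and the NJ15 arrays spanned 2.14-fold inside it. Mock seedlings averaged 10.71 ± 1.56 (SD, n = 3), NJ15 seedlings 10.33 ± 0.62 (SD, n = 3). The log2 fold change of PSAN was -0.38 with a standard error of 0.96 and a 95% interval from -3.0 to 2.25 (limma, adjusted p = 1.00).

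PSAE-1 encodes 1 of a pair of PSAE isoforms, subunits on the outer side where ferredoxin binds. It stood at 10.56, 11.77 and 12.35 in the mock arrays, against 10.96, 11.80 and 11.79 in the NJ15 arrays. Here mock_2 lay next to NJ15_2 and NJ15_3, and both arrays numbered 1 lay lower. Its log2 fold change was -0.04 with a standard error of 0.59 and an interval from -1.65 to 1.57 (limma, adjusted p = 1.00).

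Photosystem II splits water and starts the electron flow. PSBY encodes small membrane subunits of this photosystem, cut from 1 precursor. Its level was 9.42, 10.70 and 11.92 in the mock arrays, against 10.36, 10.76 and 10.95 in the NJ15 arrays. The mock arrays spanned 5.66-fold and the NJ15 arrays 1.51-fold, while the group means were nearly equal, at 10.68 ± 1.25 (SD, n = 3) and 10.69 ± 0.30 (SD, n = 3). PSBW, a small subunit that helps to keep photosystem II in large complexes with its antenna, stood at 10.34, 11.0 and 11.75 in mock and at 10.73, 11.23 and 11.12 in NJ15 seedlings. The log2 fold changes of PSBY and PSBW were 0.01 and -0.0015, with intervals from -2.0 to 2.02 and from -1.18 to 1.18 (limma, adjusted p = 1.00 for both).

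PSB27 and LPA19 encode related lumenal proteins that attach to photosystem II while it is built or repaired, and LPA19 is known to help mature the D1 protein of the reaction centre. PSB27 had a level of 10.01, 10.48 and 11.34 in the mock arrays, against 10.20, 10.58 and 10.31 in the NJ15 arrays, so mock_3 stood apart and the other arrays lay close. LPA19 hardly moved, with 7.59, 7.74 and 7.74 in mock and 7.75, 7.71 and 7.71 in NJ15 seedlings. It was the only one of the 10 genes whose highest value fell on NJ15_1. The log2 fold changes were -0.25 for PSB27, with an interval from -1.34 to 0.84, and 0.03 for LPA19, with an interval from -0.10 to 0.17, the narrowest of the 10 (limma, adjusted p = 0.998 and 0.992).

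The difference between PSB27 and LPA19 within an array was used to compare their shifts with NJ15. LPA19 spanned only 0.16 over the 6 arrays, so the difference mostly follows PSB27 and cannot tell whether both genes moved alike. The difference was 2.42, 2.74 and 3.61 in the mock arrays, against 2.45, 2.87 and 2.60 in the NJ15 arrays. Mock seedlings averaged 2.92 ± 0.61 (SD, n = 3) and NJ15 seedlings 2.64 ± 0.21 (SD, n = 3), a shift of -0.28 that was smaller in size than the SD among mock arrays. A two-sided exact permutation test of the difference between group means gave p = 0.7, where 3 against 3 cannot go below 0.1. Without mock_3 the shift was 0.06.

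LHCB4.1 and LHCB4.2 encode 2 forms of CP29, a minor antenna protein that links the main light-harvesting complex to the core of photosystem II. LHCB4.1 stood at 11.50, 12.00 and 12.42 in the mock arrays, against 11.83, 12.23 and 12.21 in the NJ15 arrays. LHCB4.2 covered a wider range, with 10.60, 11.41 and 12.50 in mock and 11.09, 11.66 and 11.90 in NJ15 seedlings. Both genes put the 6 arrays in a similar order, yet from mock_1 to mock_3 LHCB4.1 differed by 1.89-fold and LHCB4.2 by 3.74-fold. Their log2 fold changes with NJ15 were 0.12, with an interval from -0.69 to 0.92, and 0.04, with an interval from -1.58 to 1.67 (limma, adjusted p = 1.00 for both). The third CP29 gene, LHCB4.3, was flat at 7.71, so nothing can be said of a change in it.

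Within each array LHCB4.1 minus LHCB4.2 was 0.91, 0.59 and -0.08 in mock and 0.74, 0.58 and 0.32 in NJ15 seedlings. Mock seedlings averaged 0.47 ± 0.50 (SD, n = 3), NJ15 seedlings 0.55 ± 0.21 (SD, n = 3), and the shift of 0.07 was smaller than either SD. A two-sided exact permutation test of the difference between group means gave p = 0.9. The shift turned to -0.20 without mock_3 and to -0.03 without NJ15_1. In each group the difference was largest on the array numbered 1, where both genes were lowest, and smallest on the array numbered 3.

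The Calvin cycle is represented by RCA, which encodes the activase that frees Rubisco from bound sugar phosphates, and by PRK, which encodes the kinase that regenerates the acceptor of carbon dioxide. RCA had a level of 10.75, 11.98 and 12.54 in the mock arrays, against 11.06, 11.89 and 11.76 in the NJ15 arrays. It resembled PSAE-1 in its spans, 3.46-fold among mock and 1.77-fold among NJ15 seedlings. PRK stood at 10.15, 10.38 and 10.79 in mock and at 10.04, 10.69 and 10.50 in NJ15 seedlings, and was the only gene of the 10 whose lowest value fell on NJ15_1. The log2 fold changes were -0.19 for RCA, with an interval from -1.78 to 1.4, and -0.03 for PRK, with an interval from -0.75 to 0.70 (limma, adjusted p = 1.00 for both).

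Counted over the 10 genes, none passed limma at an adjusted p under 0.05 and none had an unadjusted p under 0.05, the lowest being 0.544. Over all probe sets tested, 0.193% passed (44 of 22746), and 5.51% had an unadjusted p under 0.05. Of these calls 40 fell on flat probe sets, and a fit over the 6144 varying probe sets called 0.0651% (4), again with none of the 10 genes. The groups overlapped for each of the 10 genes. For 12.5% of the varying probe sets they did not overlap, and none among 10 genes is close to that share. For 8 of the 10 genes all NJ15 arrays lay inside the range of the mock arrays, which was so for 38.4% of the varying probe sets; LPA19 and PRK were the exceptions. The median log2 fold change was -0.014 over the 10 genes, 4 of them higher and 6 lower, against -0.0062 over the varying probe sets and -3.33e-10 over all tested, most of which are flat. Apart from LPA19, the interval of each gene covers at least the log2 fold changes from -0.69 to 0.70, so these arrays do not show that NJ15 left the genes at the mock level. LPA19 averaged 7.71 over the 6 arrays with a span of 0.16, and its signal over background is unknown. Its narrow interval therefore does not show it unchanged either.

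The 10 genes had no common direction over all 6 arrays, with 4 higher and 6 lower, and signs turned when single arrays were left out. Without mock_1, all 10 genes were lower in NJ15, from -1.09 for PSAN to -0.02 for LPA19, with a median of -0.475. Without mock_3, all 10 were higher, from 0.06 for LPA19 to 0.63 for PSBY, with a median of 0.348. None passed limma in either case, with a lowest adjusted p of 0.822 and 0.757. Leaving out NJ15_1, the lowest NJ15 array for 9 of the genes, left 8 higher and 2 lower. Without mock_2, NJ15_2 or NJ15_3, 2 genes changed sign in each case. The genes were read on the same arrays, so their shared turns are not 10 separate results.

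**Figure D2:**
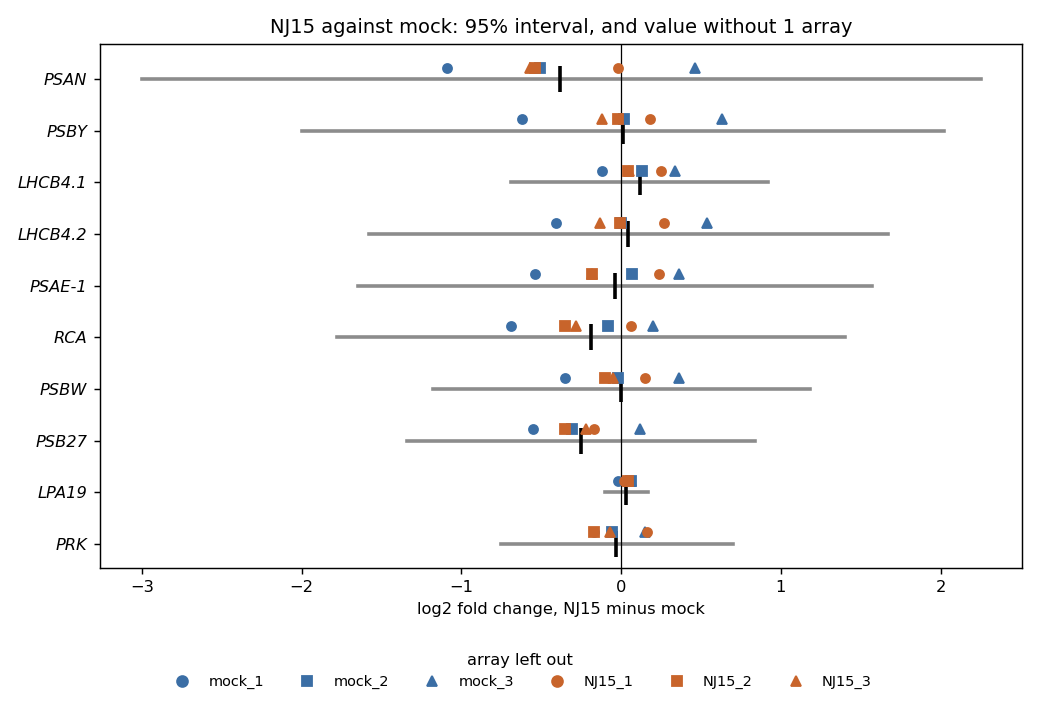
Log2 fold change of NJ15 minus mock (horizontal axis) for each of the 10 genes (vertical axis), with the black tick for the value over all 6 arrays and the grey line for its 95% interval from limma. Symbols above each line give the value with the array named in the legend left out; all values without mock_1 lie below 0 and all values without mock_3 above it.

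The spread between arrays of 1 treatment was larger in mock than in NJ15 seedlings for 9 of the 10 genes, as measured by the SD, and for 72.1% of the varying probe sets. The median span from the lowest to the highest array was 1.6 in mock and 0.62 in NJ15 seedlings for the 10 genes, against 0.35 and 0.22 for the varying probe sets. PRK was the exception, with spans of 0.64 and 0.65. The genes were chosen for varying values, so the size of their spans was partly set by that choice. None of the 10 lay close to the limit of 0.01 for varying values. The nearest inside it was LPA19, with a span of 0.16 over all 6 arrays, followed by PRK with 0.74. LHCB4.3, the 1 listed photosynthesis gene with a named single-gene probe set outside it, had a span of 5.6e-08.

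**Figure D3:**
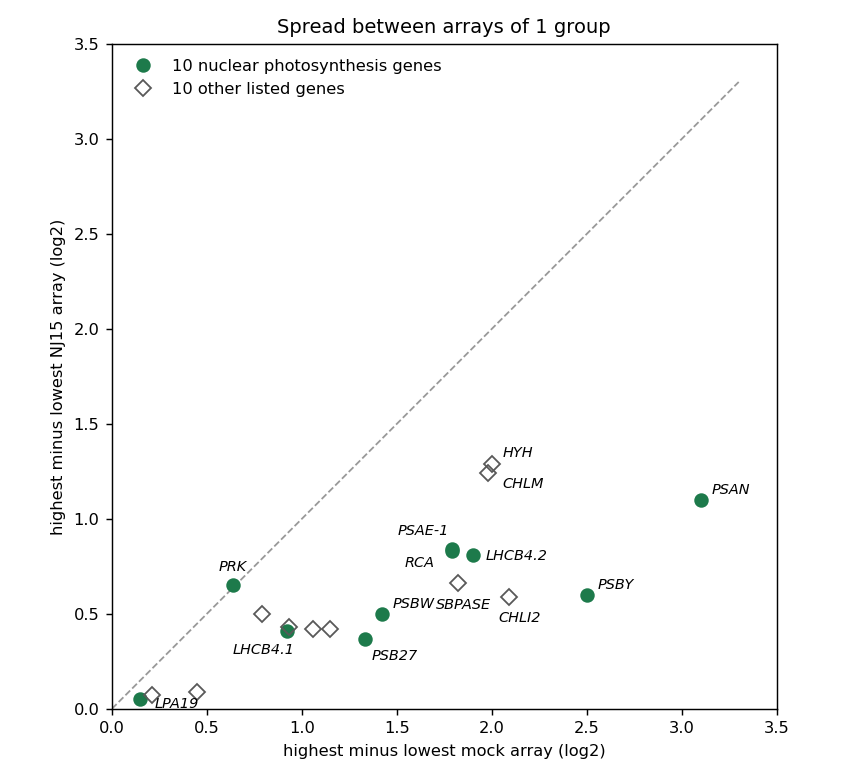
Highest minus lowest array within the mock group (horizontal axis, log2) and within the NJ15 group (vertical axis, log2). Filled circles are the 10 nuclear photosynthesis genes, open diamonds are 10 other genes of photosynthesis, chlorophyll synthesis and their regulation (4 of them named), and the dashed line marks equal spans. All points but PRK lie below the line, and PSAN has the widest span in mock, 3.10.

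The 10 genes moved together over the arrays to different degrees. Pearson's r over the 6 arrays between 9 of them, all but LPA19, lay between 0.80 and 0.99 for the 36 pairs, with a median of 0.93. LPA19 reached r between 0.26 and 0.69 with the 9 other genes. Against the mean of the 9 others, r was 0.99 for PSBW, 0.98 for LHCB4.2, 0.92 for PSB27, 0.89 for PRK and 0.57 for LPA19. These values describe 6 arrays that were shared by all genes, among which mock_1 and mock_3 lie farthest from the rest.

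The low values on mock_1 were not restricted to these genes. Of the varying probe sets, 28.9% had mock_1 lowest and mock_3 highest among the mock arrays, and 22.6% had the opposite order. For 32.7%, NJ15_1 was lowest among the NJ15 arrays, which is close to an even split over these arrays. Among 1343 other single-gene probe sets that spanned at least 0.5, 234 (17.4%) had r above 0.9 with the mean of the 10 genes and 57 (4.24%) had r below -0.9.

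By this measure the 10 genes most like the mean were AT3G25805, AT5G48490, AT1G44000, TRXF2, AT3G12930, AT2G04039, CaS, AT2G43560, AT3G59780 and PAM68, with r from 0.990 to 0.997 over 6 arrays. AT5G48490 had the widest range of them, with levels of 6.68, 9.67 and 12.16 in the mock arrays, against 7.67, 9.78 and 9.76 in the NJ15 arrays. CaS, which encodes a calcium-binding protein of the thylakoid membrane, stood at 6.63, 9.01 and 10.61 in mock and at 7.87, 9.16 and 9.05 in NJ15 seedlings. TRXF2, a chloroplast thioredoxin that activates Calvin cycle enzymes, stood at 7.29, 8.20 and 8.87 in mock and at 7.72, 8.23 and 8.25 in NJ15 seedlings. PAM68, an assembly factor of photosystem II, covered a narrow range, with a span of 0.51. In all 4, mock_2, NJ15_2 and NJ15_3 lay between the other mock arrays. The ranking by r selected for this order, so it is not a separate result.

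The 5 genes most opposite to the mean were AT5G47980, AT3G26460, AT4G20000, EULS3, which encodes a lectin, and AT3G28690, with r from -0.995 to -0.977. AT5G47980 stood at 7.90, 6.84 and 6.07 in the mock arrays, against 7.48, 6.83 and 6.85 in the NJ15 arrays. That mock_1 and NJ15_1 were its highest arrays follows from the ranking by r.

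Further genes of photosynthesis and of chlorophyll synthesis were taken from 6 lists that together held 103 genes, the 10 included. A single-gene probe set was named for 20 of them, of which 19 varied, so 9 varying genes were added to the 10. None passed limma, against 0.193% of all probe sets tested and 0.0651% in the fit over varying probe sets. None had an unadjusted p under 0.05, against 5.51% of all tested. With so few genes, none is close to each of these shares. The other listed genes had no single-gene probe set in the annotation used, which does not show that the array lacks them. By list, a single-gene probe set was named for 2 of 12 genes of photosystem I, 6 of 19 of photosystem II and its assembly, and 3 of 21 of the antenna. It was named for 4 of 24 of the Calvin cycle, 1 of 12 of electron transport and ATP synthase, and 4 of 15 of chlorophyll synthesis. The median log2 fold change of the 19 varying genes was 0.01. All 9 added genes were lowest on mock_1 of all 6 arrays, and 6 of the 9 were highest on mock_3.

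Among the added genes with the wide pattern, CHLM, the methyltransferase of chlorophyll synthesis, stood at 9.70, 10.84 and 11.68 in the mock arrays, against 9.87, 11.11 and 10.95 in the NJ15 arrays. CHLI2, a subunit of the chelatase that inserts magnesium, stood at 6.97, 8.58 and 9.06 in mock and at 7.89, 8.47 and 8.38 in NJ15 seedlings. SBPASE, the sedoheptulose bisphosphatase of the Calvin cycle, stood at 8.64, 9.93 and 10.46 in mock and at 9.60, 10.26 and 10.06 in NJ15 seedlings. For CHLM the values of mock_1 and NJ15_1 were close together, whereas for SBPASE mock_1 stood alone. The log2 fold changes of CHLM, CHLI2 and SBPASE were -0.09, 0.04 and 0.30, with standard errors of 0.68, 0.65 and 0.57 (limma, adjusted p = 1.00, 1.00 and 0.999).

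ATPC1, the gamma subunit of the chloroplast ATP synthase, and LPA1 and LPA2, assembly factors of photosystem II, had mock spans of 1.15, 0.79 and 0.93 and also put mock_1 lowest and mock_3 highest. Their log2 fold changes were 0.16, -0.03 and 0.01. The remaining 3 genes, PORB, GSA1 and PGK2, were highest on mock_2 and not on mock_3. PORB, a light-dependent enzyme of chlorophyll synthesis, stood at 10.86, 11.93 and 11.09 in mock and at 11.20, 11.59 and 11.62 in NJ15 seedlings. GSA1, an aminotransferase early in chlorophyll synthesis, and PGK2 (AT1G56190), a phosphoglycerate kinase, spanned 0.45 and 0.21 over the 6 arrays.

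Of 9 listed regulators of photosynthesis genes, HYH was the only one with a named single-gene probe set. It encodes a close relative of HY5, a transcription factor that promotes development in light. Its level was 6.23, 7.67 and 8.23 in the mock arrays, against 6.44, 7.74 and 7.52 in the NJ15 arrays, with both arrays numbered 1 low. The log2 fold change of HYH was -0.14 (limma, standard error 0.71, adjusted p = 1.00).

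**Figure D4:**
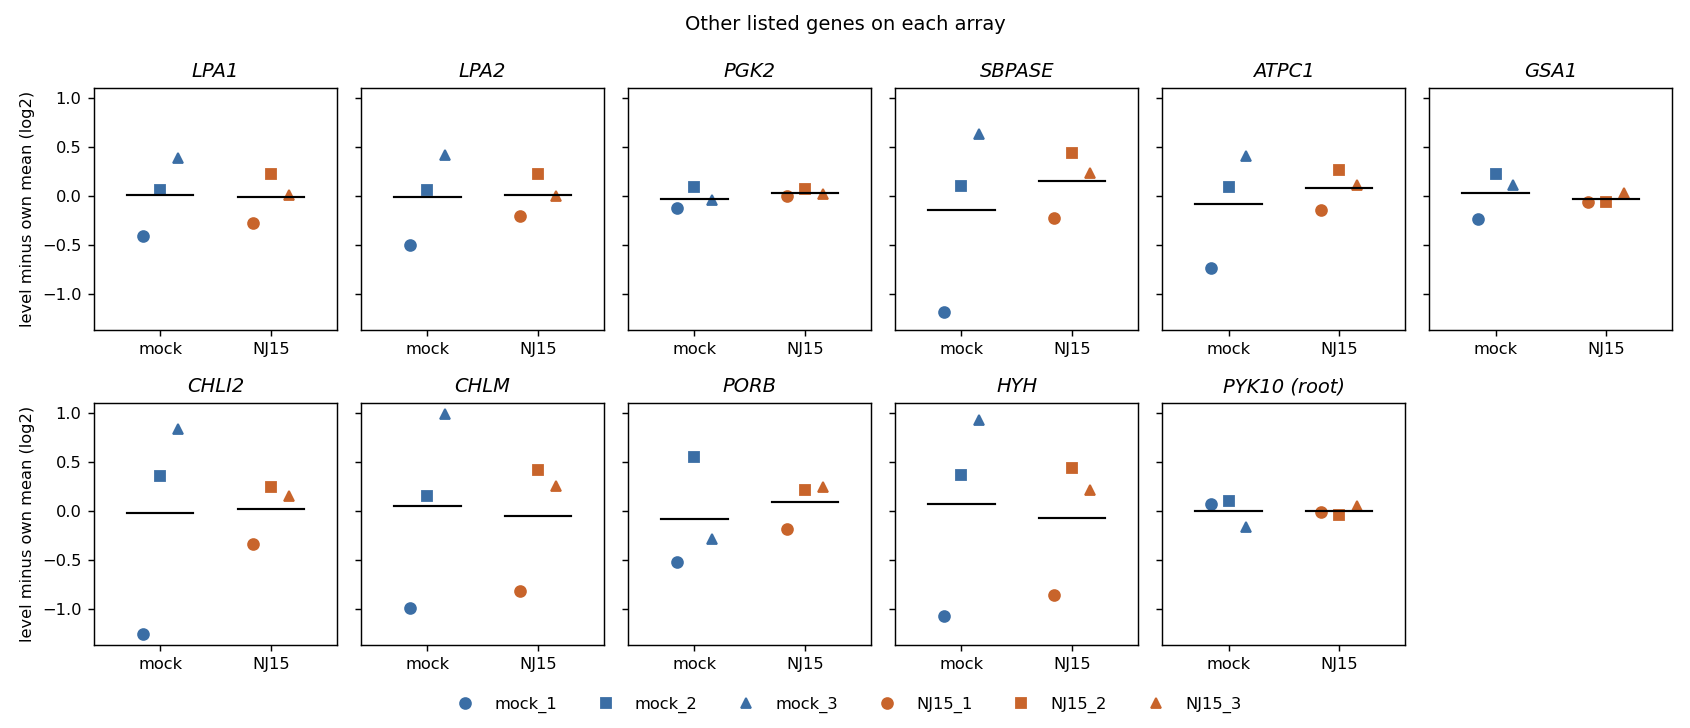
Level of 10 other listed genes and of the root marker PYK10 on each array, as the difference from the gene's own mean over 6 arrays (vertical axis, log2), for the mock and the NJ15 group (horizontal axis). Each symbol is 1 array and each bar is the mean of 3; mock_1 is the lowest array for all genes but PYK10, and mock_3 is the highest for LPA1, LPA2, SBPASE, ATPC1, CHLI2, CHLM and HYH.

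Root tissue was looked at beside these values because the seedlings were harvested whole. Of 11 root markers, 3 had a named probe set, and EXPA7 and EXPA18, expansins of root hairs, were flat. PYK10, an abundant beta-glucosidase of the root and hypocotyl, stood at 13.29, 13.32 and 13.05 in the mock arrays, against 13.21, 13.18 and 13.27 in the NJ15 arrays. Its lowest value fell on mock_3, where 9 of the 10 photosynthesis genes were highest. Its highest value fell on mock_2 and not on mock_1, where 9 of the 10 were lowest. The span of PYK10, 0.27, was smaller than that of each of the 10 genes but LPA19. The part of tissue composition in the pattern of the photosynthesis genes was not tested.

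Genes encoded in the plastid are given for comparison. They were taken without regard to function, so they are not limited to the complexes described above. Of 69 with a named probe set, 63 varied, and their average centred level was 0.21, -0.09 and 0.32 in the mock arrays, against 0.01, -0.12 and -0.33 in the NJ15 arrays. Of these 63, 38 were highest on mock_3 of all 6 arrays, against 9 of the 10 nuclear genes and 30.4% of the varying probe sets. On mock_1, 4 of the 63 were lowest, against 9 of the 10 nuclear genes and 26.1% of the varying probe sets; the difference between the 2 sets was not tested.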

How the data were processed

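Total RNA of 6 seedling samples was labelled with biotin by an Affymetrix kit that primes from the 3 prime end, per the labels' protocols, and the submitters' processing notes name R 2.7.2. How background, scaling and summarization were handled is not given in the sources used here. Each array has 1 value per probe set, deposited by the authors and read as log2 from the range of 5.30 to 14.04. No scanner values were used, so the number of arrays limits the precision.

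The 64 control probe sets were left out. The 22746 others were fitted as deposited with limma 3.58.1 in R 4.3.3 (lmFit, eBayes, two-sided, Benjamini-Hochberg over all, threshold 0.05), after each probe set was expressed relative to 1 array and rounded to the table's decimals. The fit was tested on simulated data. Gene pairs within an array were compared by exact permutation (scipy 1.17.1). Figures were drawn with matplotlib 3.10.9.

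Genes were named by the platform annotation, with symbols brought up to date from TAIR10.1 gene records: 13513 probe sets had 1 gene, 503 several and 8730 none listed. Where a gene had several, the one with the highest mean was to be used. Named were the 10 genes, every other varying gene of the lists, and the 10 most like and 5 most opposite by Pearson's r with the mean of the 10, among single-gene probe sets spanning at least 0.5; which of these are given array by array was decided after their values were seen. The members and lists were chosen with earlier results of these data known.

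Alternatives were varying probe sets only, quantile normalization, centring of arrays, removal of dim probe sets, an intensity trend with a robust prior, the replicate number as a block, a threshold of 0.01 and leaving out each array. Background correction and the slide could not be varied with this table.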

Additional observations from a re-analysis of the deposited data

How the results depend on the processing

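None of the 10 genes passed limma in the deposited values or in any alternative, and none had an unadjusted p under 0.05 in any fit. The count over all probe sets, 44 in the deposited values, was 4 over varying probe sets, 0 after quantile normalization, 17165 after centring, 1 without dim probe sets, 0 with the trend and robust prior and 1 at a threshold of 0.01, where 3347 and 886 had an unadjusted p under 0.05 in the cases of 0; it ran from 4 to 15 without 1 array. Centring moves flat probe sets together, which by construction makes them pass.

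The median log2 fold change of the 10 genes was -0.014 over all 6 arrays and ran from -0.475 to 0.348 without 1 array, so its sign turned. By gene these leave-out ranges were -1.09 to 0.46 for PSAN, -0.62 to 0.63 for PSBY, -0.12 to 0.34 for LHCB4.1, -0.41 to 0.54 for LHCB4.2, -0.54 to 0.36 for PSAE-1, -0.69 to 0.20 for RCA, -0.35 to 0.36 for PSBW, -0.55 to 0.12 for PSB27, -0.02 to 0.06 for LPA19 and -0.17 to 0.16 for PRK. The shift of LHCB4.1 minus LHCB4.2 ran from -0.20 to 0.29 and that of PSB27 minus LPA19 from -0.53 to 0.06. PSBW turned to 0.00883 after quantile normalization and PSBY to -0.0069 after centring, both from values near 0; the cause was not tested.

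With the replicate number as a block, limma called 0 probe sets, with 1208 at an unadjusted p under 0.05, and none of the 10 genes. The numbers are not taken to pair the samples: deviations from the group means correlated at r = 0.586, -0.305 and 0.192 across varying probe sets for numbers 1, 2 and 3, and mock_2 and mock_3 correlated best with an NJ15 array of another number. Each of the 10 genes had 1 single-gene probe set, so another probe set could not be tried. Gene by gene, intervals set by 3 arrays a group limit what can be detected.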
